A study of Mus musculus with 81 samples.

Results

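Microglia, the resident macrophages of the brain, read extracellular nucleotides through purinergic receptors, and 9 genes of that system are described here: the P2Y receptors P2ry12, P2ry13 and P2ry6, the P2X channels P2rx1, P2rx4 and P2rx7, the adenosine receptors Adora1 and Adora3, and the ectonucleotidase Entpd1. They were taken by gene symbol from count tables of 25124 genes, and all 9 were found, with the same RefSeq transcript, in each of the 6 tables used. Each of the 9 passed the filter on low counts in every fit. On mm10, P2ry13 (chromosome 3, 59207894 to 59210882) and P2ry12 (59216271 to 59262985) lie 5388 bases apart on the minus strand. P2rx7 (chromosome 5, 122643927 to 122684289) and P2rx4 (122707544 to 122729738) lie 23254 bases apart on the plus strand. Adora3 is also on chromosome 3 (105904421 to 105908928), P2ry6 on 7 (100937634 to 100964366), P2rx1 on 11 (72999145 to 73015197), Adora1 on 1 (134199215 to 134235457) and Entpd1 on 19 (40659770 to 40741602).

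ATP and ADP leave damaged or active cells. P2Y12, a receptor for ADP coupled to inhibitory G proteins, directs microglial processes toward the source and is a marker of microglia at rest. P2Y13 also binds ADP, and P2Y6 binds UDP and is linked to phagocytosis. P2X1, P2X4 and P2X7 are ion channels opened by ATP; P2X7 needs high ATP and is the classical trigger of the NLRP3 inflammasome. CD39, the product of Entpd1, cuts ATP and ADP to AMP at the cell surface, and CD73 (Nt5e) cuts AMP to adenosine. Adenosine acts on A1 (Adora1) and A3 (Adora3), both coupled to inhibitory G proteins.

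The cells came from adult male C57BL/6 mice on a regular diet (baseline) or after 4, 5 or 6 weeks of 0.2% cuprizone, a copper-binding compound in the chow that damages oligodendrocytes and so removes myelin. Genotypes were WT and Trem2KO (without the lipid receptor Trem2), and 3 lines with an inducible Cre in 1 Cx3cr1 allele: Cx3cr1CreERT2/WT (here Cre), Cx3cr1CreERT2/WT::Mef2afl/fl (Mef2aKO) and Cx3cr1CreERT2/WT::Egr2fl/fl (Egr2KO). All 3 Cre lines therefore have 1 Cx3cr1 allele interrupted, and Cx3cr1-driven Cre is also active in other macrophages. The agent that activates CreERT2 is not given in the sources used here. The baseline gate took cells low for CD11b, CD45 and CD44. After cuprizone, gates used CD229 (the product of Ly9), CD11c (Itgax) and, at 5 weeks, Clec7a. CD229neg is negative for CD229 and CD11c, CD229pos lacks CD11c, and CD229posCD11cpos has both. At 5 weeks Clec7aneg is negative for all 3 proteins, Clec7apos lacks the other 2, and the 2 further Clec7apos gates add CD229 and then CD11c. The 81 libraries form 28 groups: 3 libraries each, except 4 in the Trem2KO cuprizone gates and 2 in the baseline group of Egr2KO, in both ungated 5-week groups, and in the Clec7aneg and baseline CD229pos groups of Mef2aKO. Brains of several mice were pooled per sample. The labels do not say whether replicates came from separate pools, so p-values measure the spread between these libraries, which may be technical. A step from baseline to a cuprizone gate changes diet and gate together, and these cannot be told apart. The 3 Cre baseline libraries serve the 5-week and the 6-week comparisons, and neighbouring steps share a group.

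Total counts ran from 4387075 to 13972985 per library. All 10 defining microglia markers were detected in every library. The labels were checked on their own genes: Ly9 rose with CD229 (log2 fold change 2.47 ± 0.08 in WT, 2.83 ± 0.14 in Cre at 5 weeks, 2.29 ± 0.17 at 6 weeks), Itgax with CD11c (1.97 ± 0.14 in WT) and Clec7a with Clec7a (1.80 ± 0.10). Trem2 was lower in Trem2KO (-2.06 ± 0.09 in CD229pos). Egr2 was lower in Egr2KO whole populations at 5 weeks (-1.61 ± 0.14); at 6 weeks it was -0.62 ± 0.20 in CD229pos (edgeR adjusted p = 0.103). Mef2a was not called lower in the libraries labelled Mef2aKO (-0.17 ± 0.08 at baseline, adjusted p = 0.248; 0.15 ± 0.08 in Clec7aposCD229pos, 0.347). The counts cover the whole transcript and the deleted part is not given in the sources used here, so these levels do not check the deletion. The tag PE150, which the labels leave unexplained, is in the titles of 2 of 3 libraries of every 6-week gate, both Egr2KO baseline libraries, 2 of 3 baseline CD229neg and 1 of 2 baseline CD229pos libraries of Mef2aKO, and no Cre baseline library.

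The start regions of 5 members are shown because the results turn on these genes: Adora1 for its rise at the diet steps and its higher level in Egr2KO, P2rx7 as the other start with an EGR match, P2rx1 for the steepest fall, and P2ry12 and P2ry13 as neighbours that fell together. Each is the 250 bases before the start of the counted transcript, from RefSeq on GRCm38.p6, 5′ to 3′ on the gene's strand: chr1:134235458-134235707 (minus), chr5:122643677-122643926 (plus), chr11:72998895-72999144 (plus), chr3:59262986-59263235 (minus) and chr3:59210883-59211132 (minus). Capitals mark matches to an AP-1 or EGR motif; P2rx1, P2ry12 and P2ry13 have none.
Adora1: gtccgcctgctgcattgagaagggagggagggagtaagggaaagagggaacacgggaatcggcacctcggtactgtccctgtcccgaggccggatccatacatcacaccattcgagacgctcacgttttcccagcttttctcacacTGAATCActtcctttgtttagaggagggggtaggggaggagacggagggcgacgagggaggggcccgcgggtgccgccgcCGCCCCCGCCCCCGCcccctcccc
P2rx7: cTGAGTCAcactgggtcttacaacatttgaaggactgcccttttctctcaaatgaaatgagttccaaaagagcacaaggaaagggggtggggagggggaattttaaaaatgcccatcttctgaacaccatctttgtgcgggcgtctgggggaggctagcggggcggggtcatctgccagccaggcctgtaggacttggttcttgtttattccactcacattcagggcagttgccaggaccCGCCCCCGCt
P2rx1: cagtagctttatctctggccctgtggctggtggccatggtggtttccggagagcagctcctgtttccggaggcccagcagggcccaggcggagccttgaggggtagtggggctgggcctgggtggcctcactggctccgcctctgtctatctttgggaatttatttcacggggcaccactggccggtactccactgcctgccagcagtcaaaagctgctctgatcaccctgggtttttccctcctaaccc
P2ry12: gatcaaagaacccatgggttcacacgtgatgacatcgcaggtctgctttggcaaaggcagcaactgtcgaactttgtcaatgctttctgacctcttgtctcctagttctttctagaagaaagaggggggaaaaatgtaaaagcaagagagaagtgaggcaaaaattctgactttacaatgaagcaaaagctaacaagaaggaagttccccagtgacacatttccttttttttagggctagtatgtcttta
P2ry13: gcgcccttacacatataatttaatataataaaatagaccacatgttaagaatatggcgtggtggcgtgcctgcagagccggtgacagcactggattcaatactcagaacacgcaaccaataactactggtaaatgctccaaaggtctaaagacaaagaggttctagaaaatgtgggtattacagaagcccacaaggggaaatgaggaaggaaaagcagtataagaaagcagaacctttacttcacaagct
Motifs were searched on both strands: PU.1 as GAGGAAGT, AP-1 as TGANTCA, EGR as GCGNGGGCG, and MEF2 by its consensus. Of the 9 members 8 matched an entry for the counted start; P2ry6 did not. EGR matches stood before the starts of Adora1 (2 overlapping matches, 18 and 24 bases upstream) and P2rx7 (10 bases upstream), against 4.7% of 32851 promoters of the same length. AP-1 matched in 3 members (Adora1, P2rx7 and Adora3), against 6.75%. PU.1 matched in 1 (Adora3), against 2.44%, and MEF2 in none, against 0.508%. Adora1 and P2rx7 each have another listed start, and none of these motifs matched before it. Bases just after the start shown were found in a reference transcript for P2rx7, P2rx1 and P2ry13, but not for Adora1 or P2ry12. For the other start of Adora1 they were found. A match describes letters and is neither a bound site nor a cause.

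At WT baseline the levels ran over almost 3 orders of magnitude. Per kilobase of exon, the scale that allows genes to be compared, the mean was 651 CPM (counts scaled to a common library total) for P2ry12, 405 for P2ry13, 199 for Entpd1 and 146 for P2ry6. P2rx7 (92.1), Adora3 (79.95) and P2rx4 (38.4) followed. P2rx1 (7.75) and Adora1 (0.8304) were lowest. The ADP receptors and CD39 were thus the leading transcripts of the group in cells at rest. All levels below are plain CPM of single genes, log2 fold changes are given ± SE, and a gene rose or fell where edgeR's quasi-likelihood test gave an adjusted p under 0.05 over all genes of that fit. In these bulk libraries fewer cells of a type and less RNA per cell cannot be told apart.

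**Figure D1:**
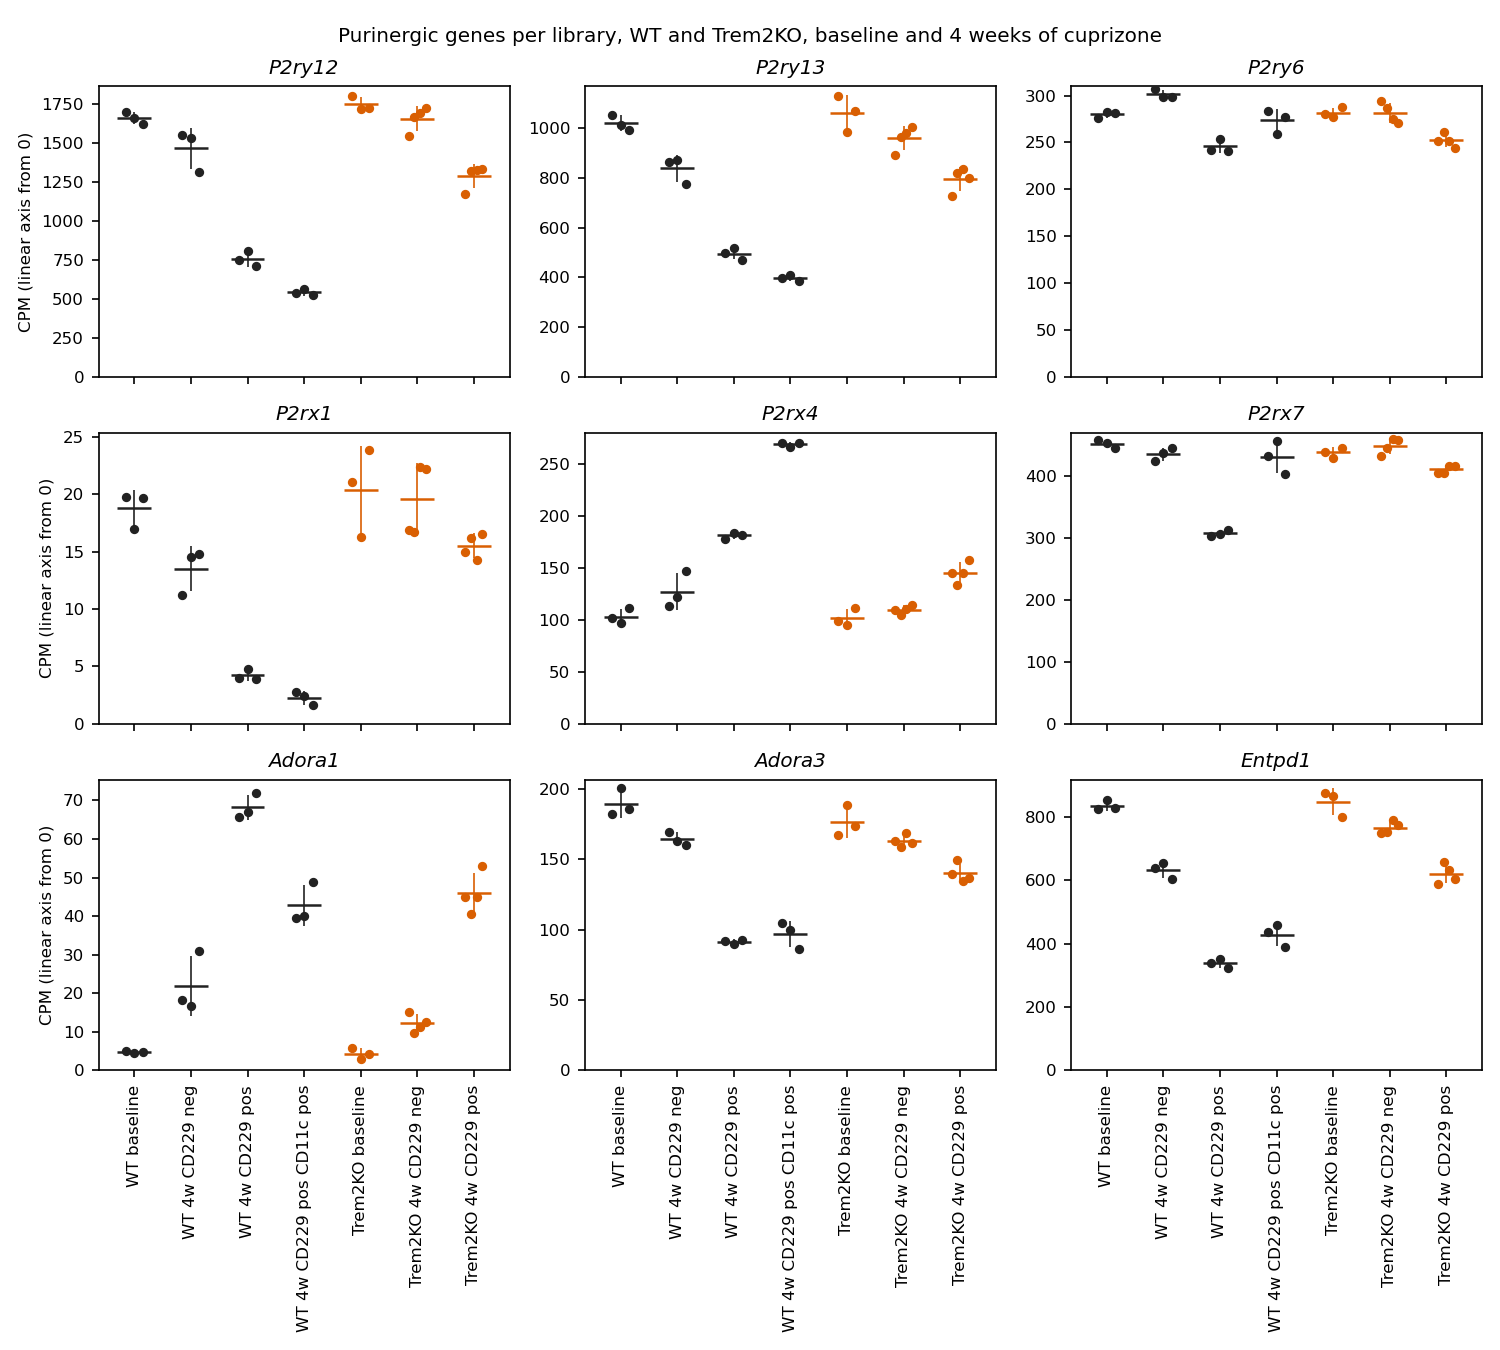
CPM (y axes, linear from 0) of the 9 genes in each WT (black) and Trem2KO (orange) library; points are libraries, bars means and lines 1 SD. P2ry12 ran from 1623 to 1700 in WT baseline and from 709.6 to 804 in WT CD229pos, while Trem2KO CD229pos held 1173 to 1332.

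P2ry12, the ADP receptor of resting microglia, fell from gate to gate in WT once CD229 appeared. It measured 1700, 1657 and 1623 CPM at baseline, 1550, 1532 and 1313 in CD229neg, 749, 804 and 709.6 in CD229pos and 535, 565 and 524 in CD229posCD11cpos at 4 weeks. No neighbouring pair of these groups overlapped, and replicate 3 of CD229neg was the lowest of its gate. The step from baseline to CD229neg was -0.14 ± 0.07 and missed the threshold (adjusted p = 0.171). P2ry12 fell from CD229neg to CD229pos (log2 fold change -0.93 ± 0.08, adjusted p = 1.04e-10) and again from there to CD11c (-0.49 ± 0.08, 2.08e-05). The 5-week Cre values were 1780, 1708 and 1672 at baseline, 1408, 1385 and 1300 in Clec7aneg, 871, 848 and 1055 in Clec7apos, 660.5, 669 and 640.3 with CD229 and 517, 494 and 518 with CD11c. All 4 of these steps passed the test (-0.36 ± 0.08, -0.50 ± 0.08, -0.50 ± 0.08 and -0.37 ± 0.08), and replicate 3 of Clec7apos stood above its group. At 6 weeks the CD229neg gate held 1780, 1315 and 1141 CPM, so that replicate 1 lay inside the baseline range and the others well under it. CD229pos held 1351, 963 and 895, with replicate 1 again the highest, and CD229posCD11cpos 607, 546 and 554. The 6-week CD229 step was -0.41 ± 0.20 (adjusted p = 0.157) and the CD11c step -0.91 ± 0.20 (0.00146). Replicate 1 is the library without the PE150 tag. With the replicate number as a block the CD229 step of P2ry12 passed (log2 -0.41, adjusted p = 0.0351). Without replicate 1 of Cre CD229pos it was -0.65 (0.0219), but CD229neg then keeps its library without the tag and CD229pos does not. Among the PE150 libraries alone the step was -0.39 (0.132).

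P2ry13, a further ADP receptor beside P2ry12 on the chromosome, followed the same course. WT libraries held 1054, 1015 and 993 CPM at baseline, 866, 871 and 777 in CD229neg, 497, 517 and 472 in CD229pos and 396, 410.1 and 385 with CD11c. None of these 4 groups overlapped another, and all 3 steps passed the test (-0.24 ± 0.07, -0.73 ± 0.07 and -0.33 ± 0.07); the first was lost without replicate 3 of CD229neg (-0.20, adjusted p = 0.0642). In Cre at 5 weeks P2ry13 ranged over 1029 to 1063 at baseline, 758 to 768 in Clec7aneg, 501 to 594 in Clec7apos, 403 to 437 with CD229 and 361 to 369.9 with CD11c. It fell at each of these steps (-0.48 ± 0.07, -0.46 ± 0.07, -0.35 ± 0.07 and -0.21 ± 0.07). The last was lost with DESeq2's size factors (-0.20, adjusted p = 0.0505) and when any 1 of 5 libraries was left out, all but replicate 1 of Clec7aposCD229pos (-0.18 to -0.21, adjusted p 0.0875 to 0.131). At 6 weeks P2ry13 measured 966, 795 and 712 in CD229neg, 777, 595 and 554 in CD229pos and 422, 416 and 401 with CD11c. The CD11c step passed (-0.64 ± 0.16, adjusted p = 0.00479; -0.44 and 0.0558 without replicate 1 of CD229pos). The diet step (-0.36 ± 0.16) and the CD229 step (-0.37 ± 0.16, adjusted p = 0.105) did not. The diet step passed with no filter (-0.37, 0.0262) and without replicate 1 of CD229neg (-0.54, 0.0407), which sets PE150 libraries alone against baseline libraries without the tag; with the PE150 covariate it was -0.20 (0.441). The CD229 step passed with a replicate block (log2 -0.37, adjusted p = 0.0462) or without replicate 1 of CD229pos (-0.56, 0.0115), which leaves the tag unbalanced between the gates. Among the PE150 libraries alone it was -0.38 (0.109). Over group means, P2ry12 and P2ry13 correlated at r = 1.00 in the 7 groups of the 4-week experiment and 0.99 in the 10 and 8 groups of the others, a description of groups that share libraries and steps.

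P2ry6, the UDP receptor, stayed within a narrow band. Its lowest and highest CPM were 276 to 282 in WT baseline, 298 to 307 in CD229neg, 241 to 254 in CD229pos and 259 to 283 with CD11c. CD229neg was highest and CD229pos lowest, with small gaps. It rose at the diet step (0.15 ± 0.05, adjusted p = 0.0261), fell at the CD229 step (-0.27 ± 0.05, 8.47e-05) and rose at the CD11c step (0.14 ± 0.05, 0.0476). The diet call was lost without any 1 of its 6 libraries (0.13 to 0.15, adjusted p 0.0608 to 0.102), and the CD11c call without replicate 1 or 3 of either gate (0.10 to 0.12, adjusted p 0.145 to 0.258). Both were also lost with DESeq2's size factors, with no filter, in a fit of only the compared groups and in the WT table alone (adjusted p 0.0552 to 0.144 for the diet step and 0.0609 to 0.14 for the CD11c step). In Cre no step of P2ry6 passed at 5 or 6 weeks: the log2 values were -0.08 ± 0.06, -0.01 ± 0.06, -0.12 ± 0.06 and 0.06 ± 0.06 at 5 weeks and -0.03 ± 0.10, -0.12 ± 0.10 and -0.04 ± 0.10 at 6 weeks.

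P2rx1, a rapidly desensitising ATP channel best known from platelets and smooth muscle, was scarce and had the largest fall of the 9 at each WT step. WT libraries held 19.8, 16.99 and 19.7 CPM at baseline, 11.2, 14.5 and 14.8 in CD229neg, 3.99, 4.79 and 3.85 in CD229pos and 2.71, 2.44 and 1.59 in CD229posCD11cpos. The 4 groups did not overlap. P2rx1 fell at all 3 steps: the log2 fold change was -0.43 ± 0.16 at the diet step (adjusted p = 0.0379), -1.67 ± 0.20 at the CD229 step (7.46e-08) and -0.89 ± 0.26 at the CD11c step (0.0114). The diet call was lost without baseline replicate 1 or 3 or CD229neg replicate 1 (-0.32 to -0.42, adjusted p 0.0748 to 0.172), and the CD11c call without CD229pos replicate 2 or CD229posCD11cpos replicate 3 (-0.79 and -0.72, adjusted p 0.051 and 0.0594). The level in 5-week Cre libraries dropped at 2 points: Clec7aneg held 15.4, 15.8 and 14.7, Clec7apos 3.83, 5.52 and 4.87, CD229 cells 3.34, 2.83 and 4.64 and CD11c cells 0.733, 0.821 and 0.795. The Clec7a step was -1.65 ± 0.22 and the CD11c step -2.21 ± 0.36, while the CD229 step within Clec7apos cells was -0.36 ± 0.26 (adjusted p = 0.474) with overlapping groups. At 6 weeks P2rx1 went from 16.2, 15.8 and 17 in CD229neg to 10.3, 6.43 and 7.46 in CD229pos and 1.496, 1.498 and 2.23 with CD11c, and both steps passed (-1.04 ± 0.19 and -2.15 ± 0.25). The single libraries without PE150 gave -0.65 and -2.73 for these 2 steps, with no test.

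The platelet and megakaryocyte list was also lower after the WT diet and CD229 steps, but not after the CD11c step. Its 6 genes summed to 53.9 to 63.99 CPM in WT baseline, 42.5 to 45.8 in CD229neg and 12.6 to 16.6 in CD229pos. With CD11c, where P2rx1 fell again, the sum was 14.65 to 19.8. In Trem2KO it was 47.2 to 52.8 in CD229neg and 25.1 to 38.3 in CD229pos, where P2rx1 averaged 19.6 and 15.5. Most of that sum was Gp9 and Gp1ba. Ppbp, an abundant platelet transcript, was at 0 in every 4-week library. The part of this list in the fall of P2rx1 was not tested.

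**Figure D2:**
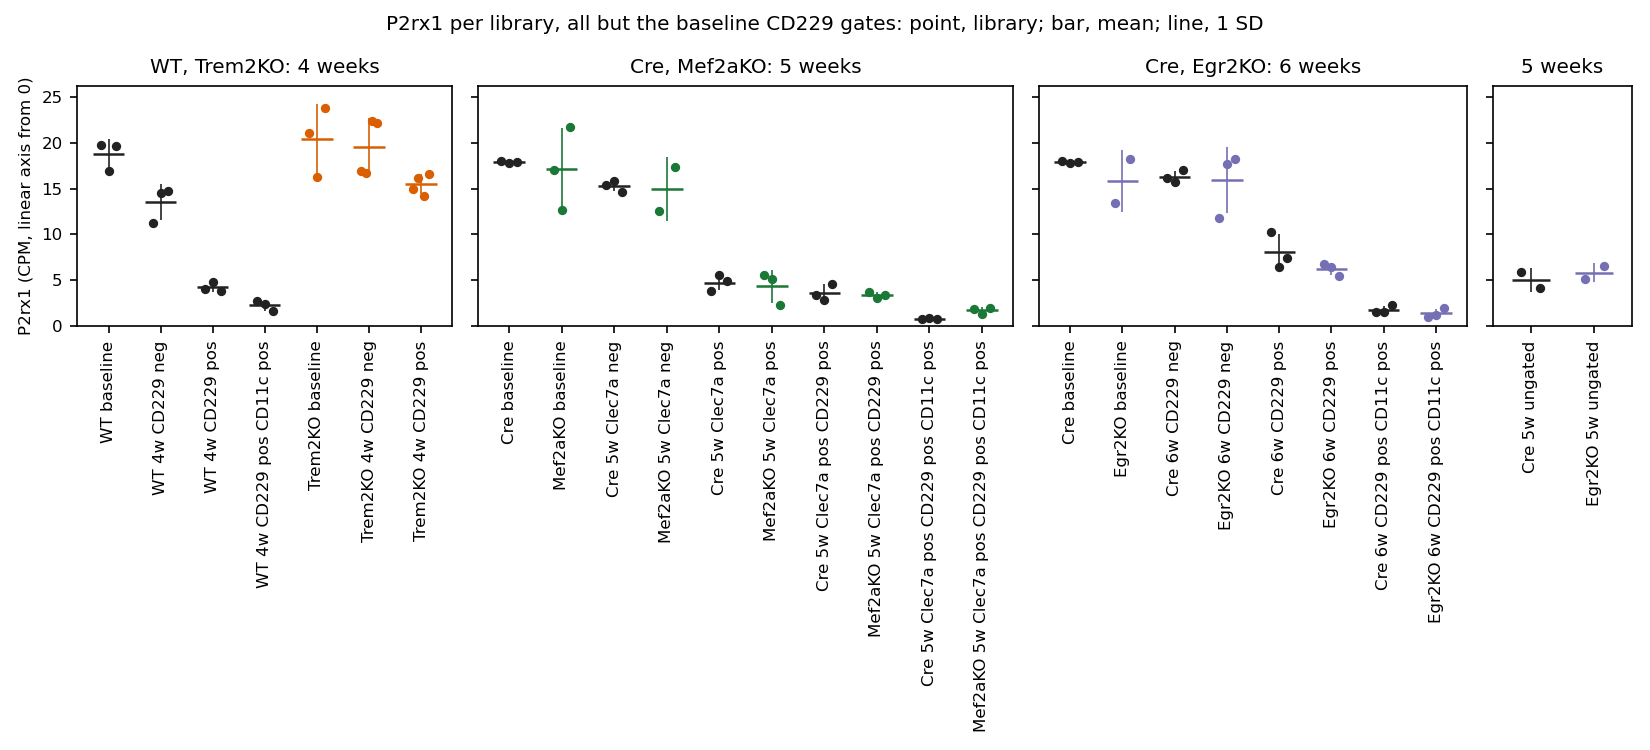
P2rx1 (CPM, linear y axis from 0) in each library, by genotype, diet and gate; points are libraries, bars means and lines 1 SD. The Cre CD11c gate at 5 weeks lies between 0.733 and 0.821 CPM against 17.8 to 18.0 at Cre baseline, and the 4 Trem2KO CD229pos libraries stay between 14.3 and 16.6.

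P2rx4, an ATP channel found on the cell surface and on lysosomes, went the other way. WT libraries held 102, 96.5 and 111 CPM at baseline, 113, 122 and 147 in CD229neg, 178, 184 and 182 in CD229pos and 270.3, 266 and 271 with CD11c. The groups did not overlap, and replicate 3 of CD229neg was the highest of its gate. P2rx4 rose at all 3 steps, by 0.35 ± 0.08, 0.54 ± 0.07 and 0.55 ± 0.07 (adjusted p = 2.6e-06 for the last). In 5-week Cre libraries it was 102 to 118 at baseline, 109.9 to 119.5 in Clec7aneg, 179.5 to 187 in Clec7apos, 206 to 209 with CD229 and 252 to 271 with CD11c. It rose at the Clec7a step (0.73 ± 0.07) and the CD11c step (0.35 ± 0.06), while the diet step was 0.07 ± 0.07 and the CD229 step 0.16 ± 0.06 (adjusted p = 0.423 and 0.144). At 6 weeks P2rx4 measured 115, 119.6 and 119 in CD229neg, 146, 159 and 148 in CD229pos and 249.8, 251 and 226 with CD11c, with log2 fold changes of 0.35 ± 0.08 and 0.69 ± 0.08 that both passed.

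P2rx7, its neighbour and the inflammasome-linked channel, dipped in CD229pos cells and returned with CD11c. The WT values were 458, 452 and 445 CPM at baseline, 423, 436 and 444 in CD229neg, 303, 306 and 313 in CD229pos and 431, 456 and 404 with CD11c. CD229pos lay under all other WT libraries. The diet step was -0.01 ± 0.05 (adjusted p = 0.866), the CD229 step -0.47 ± 0.05 (1.77e-08) and the CD11c step 0.47 ± 0.05 (1.19e-07). In Cre at 5 weeks Clec7aneg held 429 to 436, Clec7apos 367 to 380.4, CD229 cells 327 to 380.4 and CD11c cells 421 to 445. The fall at the Clec7a step was -0.15 ± 0.06 and the rise at the CD11c step 0.32 ± 0.06; the CD229 step was -0.11 ± 0.06 (adjusted p = 0.315). The Clec7a call was lost without Clec7aneg replicate 2 or Clec7apos replicate 1 or 2 (-0.13 to -0.15, adjusted p 0.0847 to 0.115). At 6 weeks no step passed (0.00 ± 0.11, -0.11 ± 0.11 and 0.04 ± 0.11), and the 3 gates ranged over 441 to 484, 407 to 464 and 436 to 442. The 2 neighbouring P2X genes thus moved in opposite directions at the WT CD229 step.

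Adora1, the adenosine A1 receptor, had the largest rise of the 9 at the WT diet and CD229 steps. WT baseline libraries held 5.11, 4.58 and 4.798 CPM, CD229neg 18.1, 16.6 and 30.9, CD229pos 65.7, 66.96 and 71.96 and CD229posCD11cpos 39.4, 39.9 and 48.95. Baseline lay under every cuprizone library, replicate 3 stood apart within CD229neg, and the peak was in CD229pos rather than in the CD11c gate. The log2 fold change was 2.22 ± 0.21 at the diet step (adjusted p = 5.11e-09), 1.67 ± 0.17 at the CD229 step (4.03e-09) and -0.69 ± 0.16 at the CD11c step (0.00169). Cre at 5 weeks also peaked in the CD229 gate without CD11c. Libraries there held 4.45, 5.66 and 4.67 at baseline, 15.8, 22.3 and 21.4 in Clec7aneg, 48.3, 45.6 and 47.99 in Clec7apos, 73.4, 64.6 and 82.3 with CD229 and 48.2, 50.1 and 50.6 with CD11c. It rose at the first 3 steps (1.98 ± 0.15, 1.31 ± 0.12 and 0.63 ± 0.11) and fell at the CD11c step (-0.57 ± 0.10, adjusted p = 0.000179). The 6-week Cre gates held 7.43, 12.4 and 12.3 in CD229neg, 19.99, 29.2 and 28.4 in CD229pos and 31.9, 37.5 and 33.3 with CD11c. The CD11c gate was then the highest. The diet step was 1.11 ± 0.18, the CD229 step 1.24 ± 0.15 and the CD11c step 0.40 ± 0.13 (adjusted p = 0.0374). That last call was lost without CD229pos replicate 1 or 3 or CD11c replicate 1 or 2 (0.29 to 0.44, adjusted p 0.0648 to 0.183), in a fit of only the compared groups (0.41, 0.061) and in the PE150 libraries alone (0.29, 0.17). Ungated Cre cells at 5 weeks held 50.5 and 59.1 CPM. Whether 4, 5 and 6 weeks differ was not tested, since genotype, gates and tables change with the weeks.

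A1 receptors are also made by neurons and astrocytes. The 4 neuron markers summed to 1.87 to 3.72 CPM in WT baseline and 0.726 to 2.45 in CD229pos. The astrocyte sum, mostly Slc1a3, was 208 to 224 at baseline and 83.03 to 96.1 in CD229pos. The part of these lists in the levels of Adora1 was not tested. Mybph overlaps the 3′ end of Adora1 on the opposite strand, and the strand setting of the counting is not given in the sources used here, so some reads could belong to the neighbour. In the 5-week fit Mybph held 3.22 to 4.67 CPM at Cre baseline and 9.97 to 13.5 in Clec7aposCD229pos, and its steps were 0.71 ± 0.22 (adjusted p = 0.0139), 0.42 ± 0.20 (0.102) and 0.47 ± 0.19 (0.157).

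**Figure D3:**
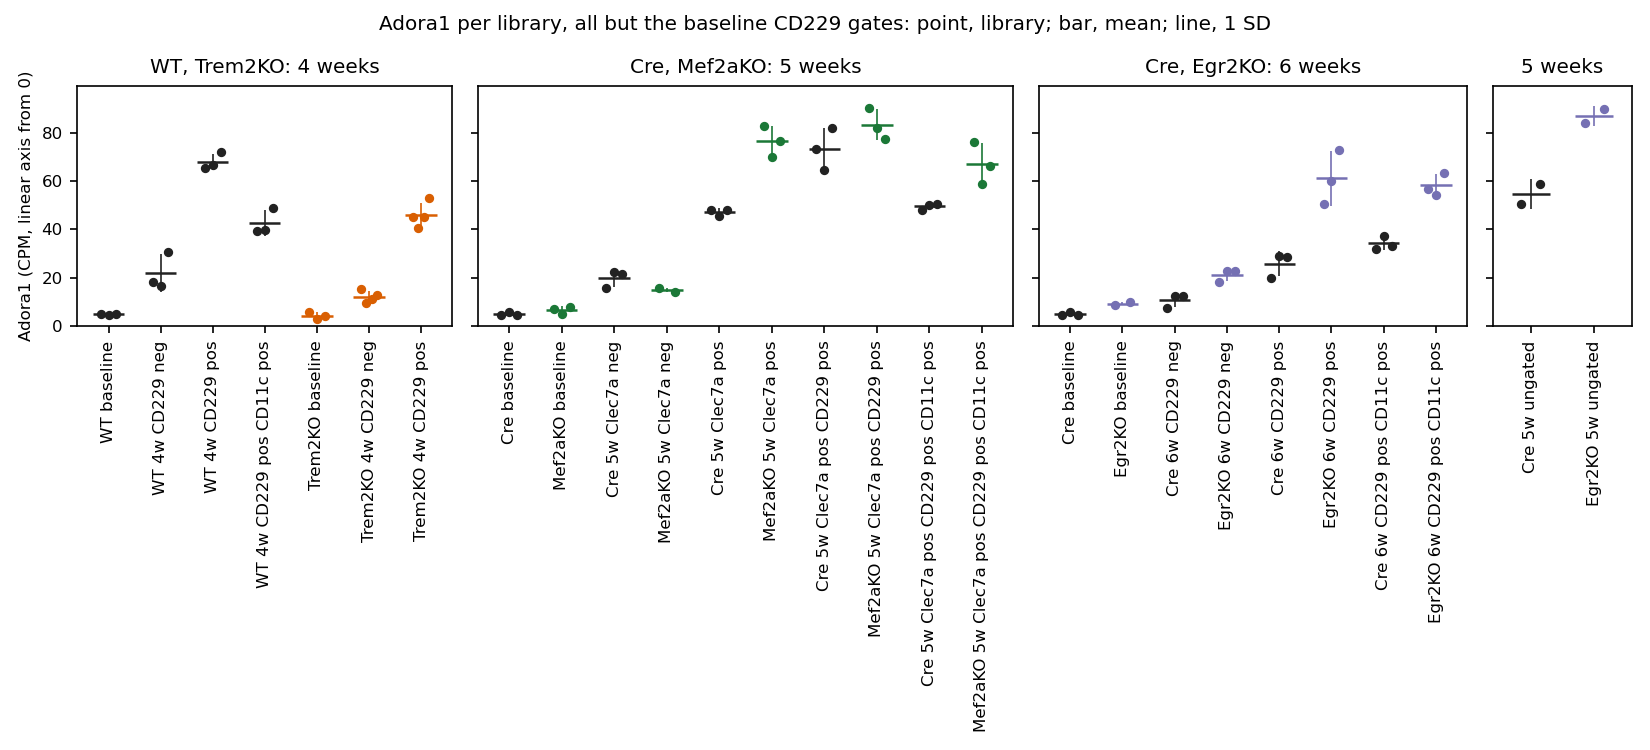
Adora1 (CPM, linear y axis from 0) in each library, by genotype, diet and gate; points are libraries, bars means and lines 1 SD. Baseline libraries of WT, Trem2KO and Cre lie between 2.88 and 5.74 CPM, the WT CD229pos gate between 65.7 and 72.0, and each Egr2KO cuprizone gate above its Cre control.

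Adora3, the adenosine A3 receptor, fell at the WT CD229 step, where Adora1 rose. WT libraries held 182, 201 and 186 CPM at baseline, 169.5, 163 and 159.7 in CD229neg, 91.7, 89.5 and 92.8 in CD229pos and 104, 100 and 86.3 with CD11c. The last 2 groups overlapped and the others did not. The diet step was -0.16 ± 0.06 (adjusted p = 0.052), the CD229 step -0.82 ± 0.07 (1.24e-10) and the CD11c step 0.07 ± 0.07 (0.49). The diet step passed when baseline replicate 1 or 3 or CD229neg replicate 1 was left out (-0.20 each, adjusted p 0.0379 to 0.0467), with DESeq2's size factors (-0.18, 0.0294), by DESeq2 (-0.18, 0.0216) and with a replicate block (-0.16, 0.0391). In Cre at 5 weeks Adora3 ranged over 183 to 213 at baseline, 162 to 172 in Clec7aneg, 96.98 to 128 in Clec7apos, 89.96 to 115 with CD229 and 93.5 to 106 with CD11c. It fell at the first 2 steps (-0.25 ± 0.08 and -0.50 ± 0.09); the diet call was lost without baseline replicate 2 or Clec7aneg replicate 1 or 3 (-0.18 to -0.23, adjusted p 0.0704 to 0.15). The CD229 step was -0.20 ± 0.09 (adjusted p = 0.206; -0.30 and 0.0449 without Clec7apos replicate 2) and the CD11c step 0.00 ± 0.09. At 6 weeks the CD229 step was -0.23 ± 0.09 (adjusted p = 0.0957) and the CD11c step -0.42 ± 0.09 (0.0021); the former passed without CD229pos replicate 1 (-0.33, 0.0114). With a replicate block this CD229 step was -0.23 (adjusted p = 0.0506). A nested block, which takes the number within 1 genotype and diet, gave -0.24 (0.0181), and the PE150 covariate gave -0.23 (0.0371). Among the PE150 libraries alone it was -0.24 (0.0777). Tmigd3 overlaps Adora3 on the same strand, so their reads could be shared and both levels are uncertain. Tmigd3 measured 99.8 to 106 in CD229neg and 58.8 to 59.99 in CD229pos, a change of -0.76 ± 0.09.

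Entpd1, the surface enzyme CD39, fell and partly returned. WT libraries held 827, 855 and 828 CPM at baseline, 639, 654 and 605 in CD229neg, 339, 351 and 324 in CD229pos and 437, 459 and 389.7 with CD11c. None of the 4 groups overlapped, and CD229pos was lowest. The steps were -0.36 ± 0.06 (adjusted p = 9.87e-05), -0.88 ± 0.07 (2.62e-11) and 0.33 ± 0.07 (0.000586). Cre at 5 weeks held 834 to 890 at baseline, 614 to 673 in Clec7aneg, 427 to 472 in Clec7apos, 361 to 373 with CD229 and 401 to 427 with CD11c. Entpd1 fell at the first 3 of these steps (-0.45 ± 0.06, -0.44 ± 0.06 and -0.29 ± 0.06), while the CD11c step was 0.17 ± 0.06 (adjusted p = 0.0713; 0.0399 by DESeq2 and 0.0239 in a fit of only the compared groups). At 6 weeks no step passed: -0.31 ± 0.14, -0.27 ± 0.14 and -0.36 ± 0.14 (adjusted p = 0.093), with 785, 706 and 620.1 CPM in CD229neg, 648, 576 and 539 in CD229pos and 465, 468 and 439.7 with CD11c. With a replicate block the CD11c step passed (log2 -0.35, adjusted p = 0.0415), as it did with no filter (-0.36, 0.013). It also passed with a nested block (-0.35, 0.0354) and with the PE150 covariate (-0.35, 0.0334). Among the PE150 libraries alone it was -0.30 (0.309). CD39 is also made by endothelium. The 5 endothelial markers summed to 104 to 136 CPM in CD229neg and 282 to 318 in CD229pos; Flt1 was 45.8 to 83.7 and then 243 to 274, Pecam1 27.1 to 36.8 and then 3.23 to 5.41, and Cldn5 was at 0 in every WT CD229pos library. The part of this list in the levels of Entpd1 was not tested.

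**Figure D4:**
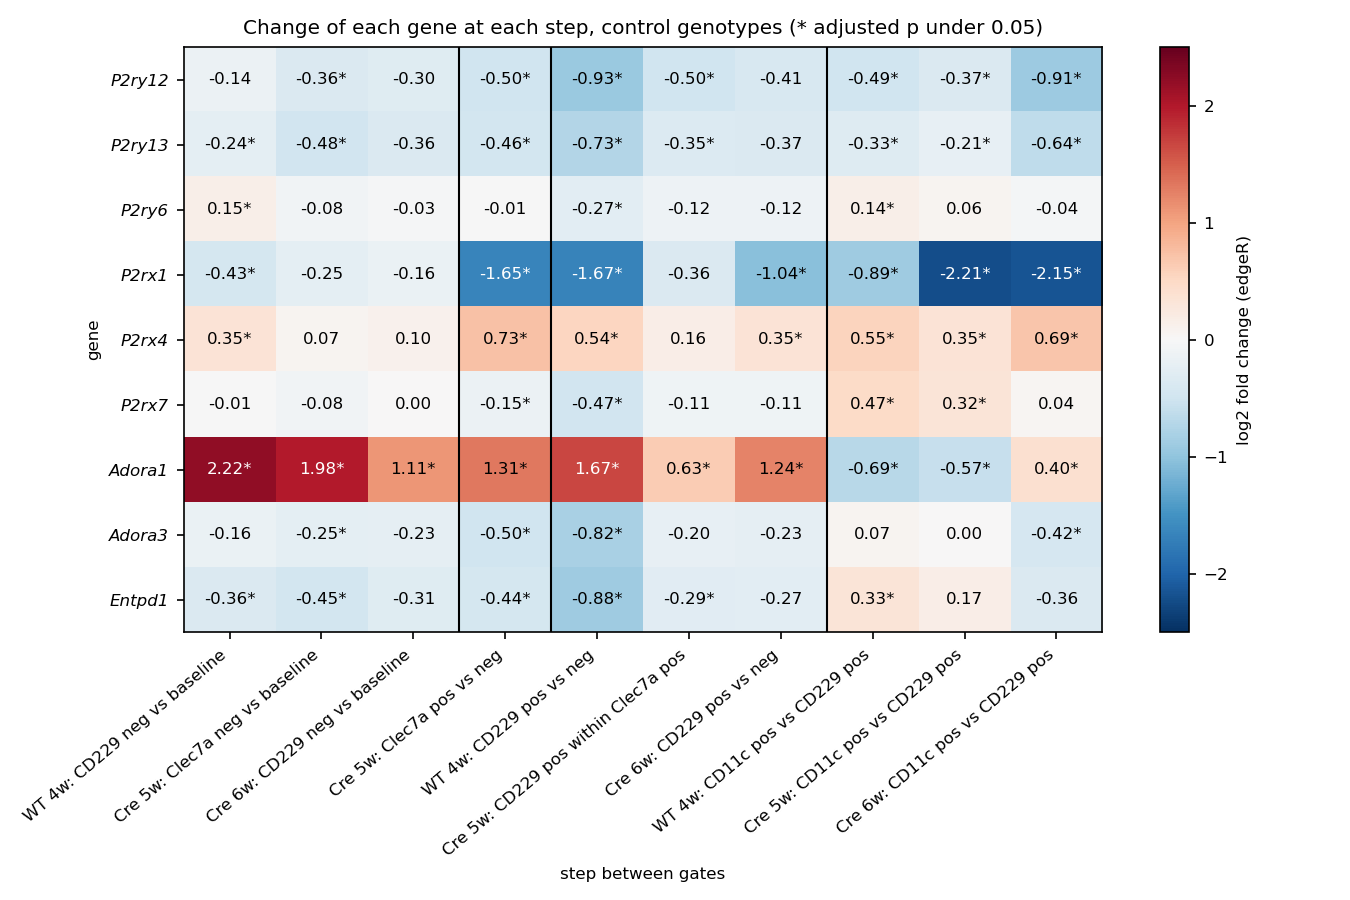
Log2 fold change of each gene (rows) at each step between gates (columns) in the control genotypes, in colour and digits; an asterisk marks an edgeR adjusted p under 0.05, and black lines separate the kinds of step. Adora1 is positive at every diet, Clec7a and CD229 step (0.63 to 2.22), and P2rx1 is negative at all 10 steps.

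Counted over the 9 genes, the WT diet step called 6 (3 up, 3 down), against 30.4% of the 12647 genes tested, and 4 to 5 with 1 library left out. Their median log2 fold change was -0.14, against 0.00 over all genes. The WT CD229 step called all 9 (2 up, 7 down; median -0.73, all genes -0.01), against 48.8%. The WT CD11c step called 8 (4 up, 4 down; median 0.07), against 23.3%. For Cre at 5 weeks the diet step called 5 (1 up, 4 down), against 28.8% of 13204 genes, and the Clec7a step 8 (2 up, 6 down; median -0.44), against 37.9%. The CD229 step within Clec7apos cells called 4 (1 up, 3 down), against 5.53%, and the CD11c step 6 (2 up, 4 down), against 14.1%. In Cre at 6 weeks the diet step called 1 (Adora1), against 5.85% of 13187 genes; it called 2 without CD229neg replicate 1. The 6-week CD229 step called 3 (2 up, 1 down), against 17.2%, and 5 with a replicate block or 6 with a nested block, with the PE150 covariate or without CD229pos replicate 1. The 6-week CD11c step called 6 (2 up, 4 down; median -0.36), against 17.2%, and 4 to 6 with 1 library left out. At each of these 10 steps the share of members called was above that of all genes, by a single gene at the 6-week diet step. This is a description only: the 9 genes were chosen with earlier results of these data known, and the steps share groups. The shares were not compared with those of genes at like levels.

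Trem2KO differed from WT most in CD229pos cells, where P2ry12, P2ry13, P2rx1, P2rx7, Adora3 and Entpd1 were higher and P2rx4 and Adora1 lower. At baseline 0 of 9 differed by edgeR's test (0 also at an unadjusted p under 0.05 and by DESeq2), against 0.577% of genes. P2ry12, though not called, held 1801, 1720 and 1722 CPM, above the 1623 to 1700 of WT without overlap. The widest 95% interval was that of Adora1, -0.68 to 0.36. In CD229neg 4 differed (2 up, 2 down), against 20.3%, and in CD229pos 8 (6 up, 2 down; median 0.55, all genes 0.01), against 52.5%. P2ry12 held 1173, 1319, 1327 and 1332 CPM in Trem2KO CD229pos, where replicate 1 lay under the other 3 and all 4 lay above the WT gate. P2ry13 held 727, 821, 838 and 802. The differences from WT were 0.70 ± 0.07 and 0.62 ± 0.07 (adjusted p = 4.68e-09 and 2.42e-08). P2ry6 was 251, 262, 252 and 244, a difference of -0.03 ± 0.05 (adjusted p = 0.586) with overlapping groups.

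Among the channels, P2rx1 differed most: 14.99, 16.2, 14.2 and 16.6 CPM in Trem2KO CD229pos against 3.99, 4.79 and 3.85 in WT. The Trem2KO libraries lay above the WT gate and under WT baseline, and the difference was 1.82 ± 0.18 (adjusted p = 4.96e-09). P2rx4 was lower (146, 134, 145 and 158, -0.39 ± 0.07) and P2rx7 higher (405, 404, 416 and 416, 0.35 ± 0.05) than in WT. Adora1 rose in Trem2KO too, to less than the WT level. It held 5.74, 2.88 and 4.28 at baseline, 15.1, 9.66, 11.3 and 12.6 in CD229neg and 45.05, 40.6, 45.05 and 52.97 in CD229pos, and was lower than in WT in both cuprizone gates (-0.87 ± 0.18 and -0.65 ± 0.14, adjusted p = 0.000744 and 0.000462). Adora3 (139, 149, 135 and 137, 0.55 ± 0.06) and Entpd1 (588, 657, 633 and 605, 0.81 ± 0.06) were higher than in WT CD229pos. In CD229neg the other calls were P2rx1 (0.50 ± 0.15), P2rx4 (-0.24 ± 0.07) and Entpd1 (0.25 ± 0.06). The P2rx1 call was lost without WT replicate 1 or Trem2KO replicate 3 or 4 (0.40 to 0.44, adjusted p 0.0544 to 0.105). The P2rx4 call was lost without WT replicate 3 or Trem2KO replicate 2 (-0.12 and -0.22, 0.298 and 0.0548). P2ry13 also passed without Trem2KO replicate 1 (0.21, 0.0352) and, at 0.19, with DESeq2's size factors, with no filter, by DESeq2 and in a fit of only the compared groups (adjusted p 0.0188 to 0.0493). P2ry12 passed with no filter (0.17, 0.0368).

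Within Trem2KO the diet step called 1 of 9 (Adora1, 1.51 ± 0.22), against 7.28%; Entpd1 also passed without baseline replicate 3 (-0.20, adjusted p = 0.0476). The CD229 step called 8 (2 up, 6 down), against 27.5%, with Adora1 at 1.89 ± 0.16, P2rx4 at 0.38 ± 0.07 and P2ry12 at -0.38 ± 0.06. P2rx1 was -0.36 ± 0.14 (adjusted p = 0.0515) and passed with a replicate block (log2 -0.34, adjusted p = 0.0479), though not with a nested one (-0.34, 0.0636). It also passed in a fit of only the compared groups (-0.35, 0.0402) and without CD229neg replicate 1 or 2 (-0.41 and -0.42, 0.0407 and 0.0318). P2rx7 (-0.15 ± 0.04) was lost without CD229neg replicate 3 or CD229pos replicate 1 or 2 (-0.11 to -0.13, 0.0504 to 0.0934). The genotypes' steps were then compared directly. For the diet step 0 of 9 interactions passed (4 at an unadjusted p under 0.05, 0 by DESeq2), against 3.95%. For the CD229 step 6 of 9 passed, all in the direction of a smaller fall in Trem2KO, against 14.8%. These were P2ry12 (0.55 ± 0.10), P2ry13 (0.45 ± 0.10), P2rx1 (1.31 ± 0.24), P2rx7 (0.33 ± 0.07), Adora3 (0.58 ± 0.09) and Entpd1 (0.56 ± 0.09, adjusted p = 5e-05). The count was 6 also with any 1 library left out. For Adora1 the difference between the steps was 0.22 ± 0.23 (adjusted p = 0.566), for P2rx4 -0.15 ± 0.10 and for P2ry6 0.09 ± 0.07.

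Sums of marker lists of other cells differed with genotype as well. In WT CD229pos the endothelial sum was mostly Flt1, while Pecam1 fell at the WT CD229 step. The astrocyte sum was mostly Slc1a3 and the platelet sum mostly Gp9 and Gp1ba. A sum can thus follow a few genes and need not count cells. The platelet list summed to 25.1 to 38.3 CPM in Trem2KO CD229pos against 12.6 to 16.6 in WT, the astrocyte list to 193 to 211 against 83.03 to 96.1, and the B cell list to 20.8 to 29.2 against 9.296 to 13.4. The endothelial list was lower, 62.4 to 70.4 against 282 to 318. Neurons (2.7 to 3.23 against 0.726 to 2.45) and T and NK cells (0 to 1.32 against 3.05 to 4.998) did not overlap either, at low levels. In CD229neg the astrocyte list was 193 to 206 against 134 to 144 and the border macrophage list 20.2 to 32.04 against 60.3 to 191. Med12l, which spans P2ry12 and P2ry13 on the opposite strand, was 159.9 to 184 in Trem2KO CD229pos and 114 to 126 in WT (0.47 ± 0.08). The difference between its CD229 steps in the 2 genotypes was -0.01 ± 0.12 (adjusted p = 0.984). Border macrophage markers summed to 83.6 to 118 in Trem2KO CD229pos and 77.1 to 224 in WT, with overlap. The part of these in the differences of the 9 genes was not tested.

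**Figure D5:**
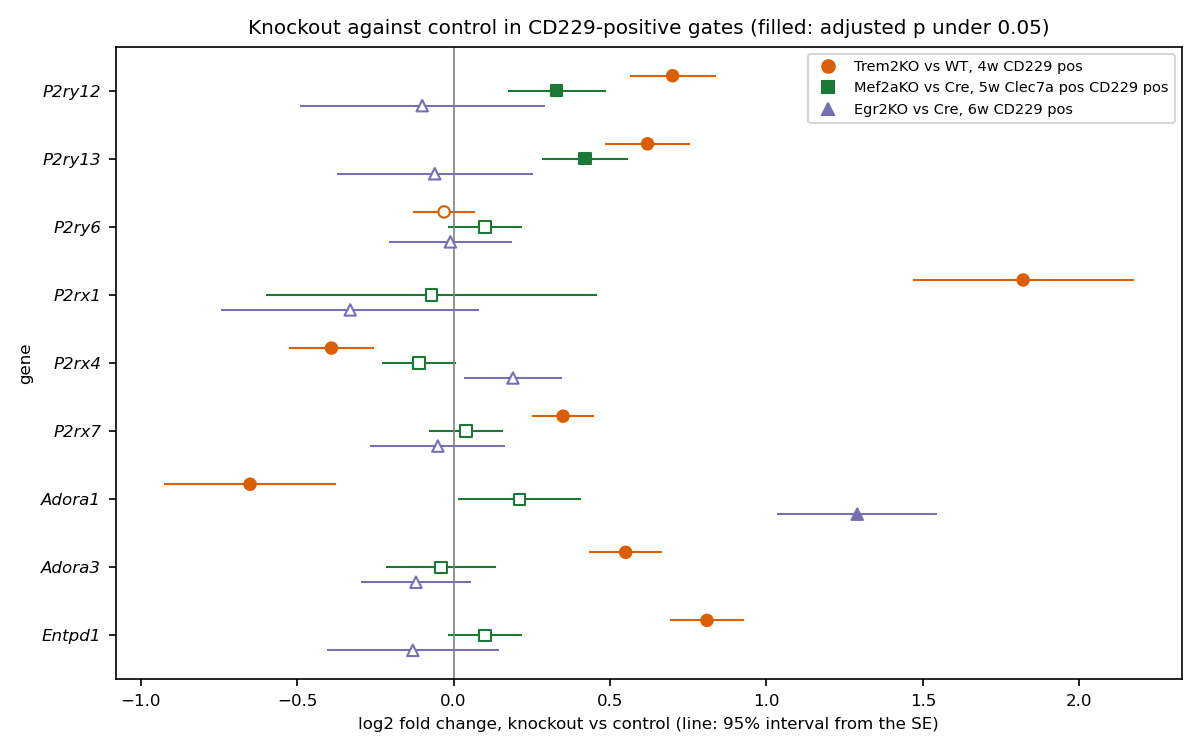
Log2 fold change (x axis; lines are 95% intervals from the SE) of each gene between knockout and control in the CD229-positive gate of each experiment; filled symbols have an edgeR adjusted p under 0.05. Trem2KO (circles) differed in 8 of 9 genes, the libraries labelled Mef2aKO (squares) P2ry12 and P2ry13, and Egr2KO (triangles) Adora1.

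The libraries labelled Mef2aKO differed from Cre in few of the 9 genes, and only P2ry13 and Adora1 were called in more than 1 gate. At baseline 0 of 9 passed edgeR's test (3 at an unadjusted p under 0.05, 0 by DESeq2), against 3.84%. In Clec7aneg 3 were higher, against 5.53%: P2ry13 (930.1 and 934 CPM against 765, 768 and 758 in Cre; 0.32 ± 0.08), P2rx7 (0.22 ± 0.06) and Entpd1 (0.25 ± 0.07). That gate has 2 Mef2aKO libraries. Without replicate 1 of them no member passed (P2ry13 0.31, adjusted p = 0.0891), without Cre replicate 2 or 3 only P2ry13 passed, and P2rx7 was lost without any 1 library (0.16 to 0.26, 0.0693 to 0.307). Entpd1 had 0.21 to 0.27 (adjusted p = 0.0679 to 0.275) without Cre replicate 2 or 3 or either Mef2aKO replicate. P2rx7 was also lost with no filter (0.20, 0.0932). P2ry12 passed with DESeq2's size factors, with no filter, by DESeq2 and in a fit of only the compared groups (0.27 to 0.30, adjusted p 0.00168 to 0.0429). Further shifts went past the threshold on leaving out 1 library: Adora1 without Cre replicate 1 (-0.52, 0.0366) and P2ry6 without Mef2aKO replicate 2 (0.29, 0.0282). In Clec7apos cells 1 of 9 was called, against 3.7%. It was Adora1, at 82.9, 70 and 76.8 CPM against 48.3, 45.6 and 47.99 in Cre, with no overlap (0.70 ± 0.11, adjusted p = 3.65e-05); P2ry13 joined it without Cre replicate 3 (0.27, 0.0187).

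In Clec7aposCD229pos cells 2 were called, against 4.9%. P2ry12 held 856, 802 and 773 CPM against 660.5, 669 and 640.3 in Cre (0.33 ± 0.08, adjusted p = 0.0124) and P2ry13 549, 553 and 553 against 403, 420.5 and 437 (0.42 ± 0.07, 0.000119). Neither gene's groups overlapped; the P2ry12 call was lost without Cre replicate 3 or Mef2aKO replicate 1 (0.29 and 0.30, 0.0741 and 0.0749). Med12l, on the opposite strand, was higher too (0.36 ± 0.09). With CD11c 2 were called, against 4.69%: P2ry13 (0.27 ± 0.07) and Adora1 (76.5, 58.8 and 66.3 CPM against 48.2, 50.1 and 50.6; 0.41 ± 0.10). Without Mef2aKO replicate 1 neither passed (0.24 and 0.31, 0.0765 and 0.17). P2ry13 was also lost without Mef2aKO replicate 2 (0.24, 0.0764), Adora1 without Cre replicate 1 (0.40, 0.0728), and P2ry12 passed without Mef2aKO replicate 3 (0.34, 0.00963) or with no filter (0.24, 0.00547). P2rx1, scarce in this gate, was 1.86, 1.299 and 2.004 against 0.733, 0.821 and 0.795 (1.13 ± 0.41, adjusted p = 0.124).

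Marker lists of other cells differed between these genotypes too. In Clec7aposCD229pos the endothelial list summed to 183 to 210.4 CPM in Mef2aKO and 278 to 316 in Cre. The border macrophage list summed there to 57.6 to 68.4 in Mef2aKO and 126 to 151 in Cre. The monocyte list was 5.22 to 6.84 against 7.92 to 10.2, and the oligodendrocyte list 88.5 to 99.36 against 99.97 to 110.8. The platelet, neutrophil, T and NK cell, B cell, dendritic cell, astrocyte and neuron lists overlapped in that gate. The endothelial list was also lower, without overlap, in the other 3 cuprizone gates (67.1 to 68.7 against 96.5 to 110.2 in Clec7aneg, 156 to 192 against 199 to 235 in Clec7apos, 179 to 231 against 258 to 272 with CD11c). Border macrophage markers were 8.72 to 13.4 against 22.4 to 33.6 in Clec7aneg and 42.2 to 59.6 against 102 to 193 in Clec7apos. With CD11c they overlapped (84.04 to 123.7 against 114.8 to 125), and the neuron list was higher (4.157 to 4.461 against 1.877 to 3.665). Some further lists in these gates also did not overlap, and others did. In WT CD229pos the endothelial sum was mostly Flt1. The genes behind the sums in these gates are not given here, so the sums need not count cells. The part of these lists in the differences of the 9 genes was not tested.

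Within Mef2aKO the diet step called 1 (Adora1, 1.18 ± 0.17), against 7.85%, and the Clec7a step all 9 (2 up, 7 down; median -0.61), against 45.8%. Adora1 rose there by 2.39 ± 0.14 and P2rx1 fell (-1.74 ± 0.24). P2ry6 (-0.17 ± 0.07) was lost without Clec7aneg replicate 1 or any Clec7apos library (-0.07 to -0.18, adjusted p 0.059 to 0.549), with no filter (-0.17, 0.0693) and with a replicate block (-0.17, 0.0502; nested, -0.15, 0.0838). The CD229 step within Clec7apos cells called 0 (2 at an unadjusted p under 0.05, 0 by DESeq2), against 0.47%, although Entpd1 passed in a fit of only the compared groups (-0.23, 0.0103). The CD11c step called 6 (2 up, 4 down), against 10.7%. Of these P2rx1 (-1.01 ± 0.30) was lost without any 1 of 6 libraries (-0.90 to -1.08, 0.0549 to 0.0971). P2rx7 (0.19 ± 0.06) was lost without any but CD11c replicate 3 (0.17 to 0.20, 0.06 to 0.0865), and Adora1 (-0.37 ± 0.10) without CD229 replicate 1 or CD11c replicate 2 or 3 (-0.31 to -0.32, 0.0593 to 0.132). Tested directly, the Clec7a step of Adora1 was larger in Mef2aKO than in Cre, by 1.08 ± 0.18 (adjusted p = 0.00037), the 1 interaction called there against 1.95%. The diet steps gave 0 of 9 (4 at an unadjusted p under 0.05 and 4 by DESeq2), against 1.39%. Among them Adora1 was -0.80 ± 0.23 (adjusted p = 0.0846), with -0.96 and 0.0255 without Mef2aKO baseline replicate 2 and -0.95 and 0.0201 without Cre Clec7aneg replicate 1; P2ry13 passed without the former (0.42, 0.0365). The CD229 steps gave 0 (3 at an unadjusted p under 0.05, 0 by DESeq2), against 0%, with 471 genes of all at an unadjusted p under 0.05 and 0 called by DESeq2. The CD11c steps gave 0 (1 and 0), against 0.053%.

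Baseline CD229 gates exist for Mef2aKO. CD229pos differed from CD229neg in 0 of 9 genes (1 at an unadjusted p under 0.05, 0 by DESeq2), against 0.15% of 12628 genes. Adora1 was 5.75 and 7.25 CPM in CD229pos and 5.101, 7.99 and 7.16 in CD229neg, with an interval of -0.55 to 0.48 for the log2 difference. The 95% interval for P2rx1 was -0.48 to 0.50, from CD229pos libraries of 9.16 and 19.36 CPM. Both intervals use a normal multiplier on groups of 2 and 3 libraries, so they may be too narrow. At the 4-week CD229 step WT had 1.67 ± 0.17 for Adora1 and -1.67 ± 0.20 for P2rx1. Diet, genotype, experiment and the PE150 tag differ between that step and this one, and the difference was not tested. Against ungated Cre baseline cells 0 of 9 differed (2 at an unadjusted p under 0.05, 1 by DESeq2, P2rx4), against 1.59%; there gate, genotype and the PE150 tag (1 of 2 libraries against 0 of 3) change together and cannot be told apart. P2rx4 also passed with no filter (0.33, adjusted p = 0.0413).

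In Egr2KO a single member differed from Cre past the threshold in each cuprizone gate, Adora1. In CD229neg it held 18.3, 22.8 and 22.8 CPM against 7.43, 12.4 and 12.3 in Cre, in CD229pos 50.5, 59.96 and 73.2 against 19.99, 29.2 and 28.4, and with CD11c 56.9, 54.5 and 63.4 against 31.9, 37.5 and 33.3. No pair of groups overlapped. The log2 differences were 1.00 ± 0.16 (adjusted p = 0.00347), 1.29 ± 0.13 (2.83e-06) and 0.78 ± 0.13 (0.00656). The other 8 members were not called, and 0.19%, 2.46% and 0.25% of the 13187 genes were. Among the PE150 libraries alone Adora1 was higher by 0.93, 1.25 and 0.77 (adjusted p = 0.00565, 1.2e-05 and 0.00387), and the single libraries without the tag differed by 1.29, 1.33 and 0.83. The CD229neg call was lost without Egr2KO replicate 2 (0.99, 0.0649), and the CD11c call without replicate 3 of Cre (0.71, 0.063) or of Egr2KO (0.73, 0.0733). In whole populations at 5 weeks Adora1 held 84.2 and 89.9 against 50.5 and 59.1 (0.63 ± 0.10, adjusted p = 0.00503), 1 of 9 called against 0.92% of 12387 genes. At an unadjusted p under 0.05 were 5 of 9 members and 1173 of all genes, and DESeq2 called 2 members. That fit has 2 residual degrees of freedom, so a member not called may still differ. P2ry12 was -0.31 ± 0.08 there (adjusted p = 0.103) and passed without either Cre library (-0.33 and -0.29, 0.00257 and 0.0118), with no filter (-0.31, 0.0052) and by DESeq2 (-0.32, 0.0135). At baseline Adora1 was 8.71 and 9.79 in Egr2KO and 4.45, 5.66 and 4.67 in Cre (0.89 ± 0.20, adjusted p = 0.0813). It passed with a replicate block (0.93, 0.0159), with no filter (0.89, 0.000404) and by DESeq2 (0.88, 0.0178), and was 0.66 (0.203) with the PE150 covariate. No member was called there (1 at an unadjusted p under 0.05, 1 by DESeq2), against 0.182%, and within baseline PE150 and genotype cannot be told apart.

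Beside Adora1, Mybph on the opposite strand was also higher in Egr2KO, 12.4 to 18.8 CPM against 5.78 to 8.298 in CD229pos (1.04 ± 0.21, adjusted p = 0.00774), with 0.59 ± 0.23 (0.522) and 0.55 ± 0.20 (0.387) in the other gates. Its reads could be shared with Adora1, whose level is several times higher. The neuron markers summed to 0.786 to 2.98 CPM in Egr2KO CD229pos and 1.04 to 1.75 in Cre, and the astrocyte markers to 119.9 to 134 and 144 to 156. The monocyte list was 10.4 to 15.6 against 21.8 to 30.2 and the platelet list 25.9 to 28.9 against 35.2 to 35.9. The part of these lists in the levels of Adora1 was not tested.

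Within Egr2KO, Adora1 and P2rx4 rose at the CD229 step and P2ry12, P2ry13, P2rx1, Adora3 and Entpd1 fell. The diet step called 1 (Adora1, 1.23 ± 0.18), against 8.23%; P2rx4 passed with a replicate block (0.29, adjusted p = 0.0375). The CD229 step called 7 (2 up, 5 down), against 27.5%, among them P2ry12 (-0.75 ± 0.20), P2rx1 (-1.37 ± 0.21) and Adora1 (1.53 ± 0.14). P2ry6 (-0.25 ± 0.10, adjusted p = 0.0546) passed with a replicate block (log2 -0.25, adjusted p = 0.0237) and without CD229neg replicate 2 or CD229pos replicate 1 (-0.30 and -0.32, 0.0272 and 0.0249). P2rx7 also passed without CD229neg replicate 2 (-0.31, 0.0339), and Entpd1 (-0.54 ± 0.15) was lost without CD229neg replicate 3 (-0.38, 0.0605). The CD11c step called 4 (1 up, 3 down), against 11.7%, with P2rx1 at -2.15 ± 0.28, P2ry12 at -0.94 ± 0.20, P2ry13 at -0.61 ± 0.16 and P2rx4 at 0.58 ± 0.08. P2ry13 was lost without CD229pos replicate 1 (-0.45, 0.0851) and in the PE150 libraries alone (-0.44, 0.0931). Adora3 (-0.26 ± 0.10) passed with a replicate block (log2 -0.26, adjusted p = 0.0428) but not with a nested one (-0.26, 0.0858). Adora3 also passed with the PE150 covariate, with no filter and in a fit of only the compared groups (-0.25 to -0.27, 0.0185 to 0.033), and was -0.20 (0.234) among the PE150 libraries alone. Entpd1 passed with no filter (-0.32, 0.0426). The steps were compared between Egr2KO and Cre for the 9 genes. No interaction passed for the diet step (0 at an unadjusted p under 0.05, 0 by DESeq2), against 0.0303%, the CD229 step (0 and 0), against 0%, or the CD11c step (1 and 0), against 0%. Over all genes the CD229 and CD11c interactions called 0 by edgeR and by DESeq2, with 545 and 405 at an unadjusted p under 0.05. For Adora1 the interaction was 0.29 ± 0.21 at the CD229 step and -0.50 ± 0.18 at the CD11c step, so the data did not show that the Adora1 difference between genotypes changed from gate to gate.

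The rest of the system was followed in 56 further genes. These were other receptors, ectonucleotidases, enzymes and carriers of adenosine and related nucleosides, ATP release channels, and genes downstream of P2X7 and P2Y12. At the WT CD229 step 23 of 32 tested were called (8 up, 15 down), against 48.8% of all genes, at the Cre Clec7a step 21 of 33 (9 up, 12 down), against 37.9%, and at the 6-week Cre CD11c step 10 of 34, against 17.2%. Enpp1, an ectoenzyme that splits ATP to AMP and pyrophosphate, rose at the WT CD229 step (1.42 ± 0.13, adjusted p = 6.09e-10) and the Clec7a step (1.42 ± 0.08), where Entpd1 fell. Of 7 tested carriers and enzymes of adenosine and related nucleosides 5 fell and 1 rose at the WT CD229 step (median -0.51, all genes -0.01, with 48.8% of all genes called). The falls included the transporters Slc29a3 (-0.53 ± 0.06) and Slc29a1 (-0.37 ± 0.06) and the purine nucleoside phosphorylase Pnp (-0.51 ± 0.06). Il1b, the inflammasome's cytokine, rose at the WT diet step (1.35 ± 0.18), the Clec7a step (1.08 ± 0.14) and the CD11c steps of Cre (1.01 ± 0.12 at 5 weeks and 1.15 ± 0.19 at 6 weeks). The pore protein Gsdmd (-0.52 ± 0.06) and the sensor Nlrp3 (-0.25 ± 0.10, adjusted p = 0.0389) fell at the WT CD229 step. The adaptor Pycard rose there (0.45 ± 0.08). The release channel Panx1 was -0.09 ± 0.16 at the WT CD229 step (adjusted p = 0.662) and rose at the CD11c steps of Cre (0.58 ± 0.12 and 0.47 ± 0.13). The potassium channel Kcnk13 was -0.15 ± 0.08 at the Clec7a step (adjusted p = 0.122). Nt5e, P2ry1 and Adora2a stayed at a few CPM or less in every library.

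In Trem2KO CD229pos 21 of 32 of these genes differed from WT (13 up, 8 down), against 52.5% of all genes, with Il1b at -2.05 ± 0.18, P2ry10b at 1.15 ± 0.14 and Enpp1 at -0.68 ± 0.11. In the libraries labelled Mef2aKO 0 to 3 of 33 differed from Cre at baseline or in any 5-week gate, against 3.7% to 5.53% of all genes, and in Egr2KO 0, 1 and 0 of 34 in the 3 cuprizone gates at 6 weeks, against 0.19%, 2.46% and 0.25%. The 1 was P2ry10b in CD229pos (-0.60 ± 0.16, adjusted p = 0.0447).

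By correlation over group means, computed apart in the 7, 10 and 8 groups of the 4-, 5- and 6-week experiments among 10270 genes, each member had close neighbours in pattern. The smallest of the 3 r values ranked them, and groups share steps and libraries. Nearest to P2ry12 were Lrba (0.988), Adgrg1 (0.987) and Gpr34 (0.987), and to P2ry13 Slc16a6 (0.988), Commd8 (0.987) and Mtss1 (0.987). P2rx1 was followed by Atp6v0a2 (0.986), St3gal5 (0.984) and Crybb1 (0.982), P2rx4 by Anxa4 (0.992), Psen2 (0.984) and Plekhm2 (0.984). P2ry6 (Trp53, 0.903) and P2rx7 (Zfyve28, 0.940) had looser neighbours. Adora1 was nearest to Arhgap24 (0.977), Man2b2 (0.976) and Rpl21 (0.976). Adora3 was nearest to the overlapping Tmigd3 (0.998) and then to Il6ra (0.992), and Entpd1 to Agmo (0.994). Among the members, P2rx4 ran opposite to P2ry12 (r = -0.98, -0.98 and -0.99 in the 3 experiments). It was about as opposite to P2rx1 (-0.96, -0.99 and -0.99) and P2ry13 (-0.98, -0.96 and -0.99). Adora1 ran opposite to Entpd1 (-0.88, -0.97 and -0.90).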

How the data were processed

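RNA-seq of sorted mouse microglia was analysed in 81 libraries of 28 groups. The deposited tables hold raw read counts per gene, with 1 annotated transcript each; the tools named in the submitters' processing notes are fastp 0.20.0, STAR 2.7.0f, HOMER 4.11 and DESeq2, and the build is mm10 (GRCm38), with no roles or settings given. Libraries were made with a strand-marking kit, per the labels' protocols. Deposited TPM tables were not used. No column of samples was left out.

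Counts were fitted in 5 sets with edgeR 4.0.16 (R 4.3.3): WT and Trem2KO at 4 weeks (23 libraries, 12647 genes tested, 16 residual degrees of freedom), Cre and Mef2aKO at 5 weeks (29, 13204, 19), baseline gates of Mef2aKO with Cre (11, 12628, 7), Cre and Egr2KO at 6 weeks (23, 13187, 15) and ungated at 5 weeks (4, 12387, 2). The 4-week set joins 24910 genes whose counts in shared WT libraries were identical in both tables; 214 were left out. The fit used filterByExpr, TMM factors (0.923 to 1.083), 1 mean per group, the quasi-likelihood test and Benjamini-Hochberg adjustment over all genes of a comparison, with a threshold of 0.05, in 43 comparisons, 9 of them interactions. The code was tested on simulated data. CPM are counts scaled to a common library total. With Python 3.11.15 and numpy 2.4.6, likeness used log2(CPM + 0.5) of genes with a mean of at least 5 CPM.

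The 9 genes and all lists were chosen with earlier results of these data known. All 9 are named; from the other lists the text names called genes whose mean is 5 CPM or more, smallest adjusted p first, up to 4 per list and comparison, and a few defining genes whether or not they passed.

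Alternatives were DESeq2's size factors, DESeq2 1.42.0, no filter, a fit of only the compared groups, a replicate block, a nested replicate block, a PE150 covariate, the WT table alone, a join by symbol alone, and each library left out in turn. Replicate numbers come from the library titles, which do not state a shared pool. Deviations of same-numbered libraries correlated above 0.1 in every pair of the CD229 step of Trem2KO (0.13 to 0.37), the CD229 and CD11c steps at 6 weeks of Cre (0.37 to 0.49 and 0.29 to 0.41) and Egr2KO (0.14 to 0.27 and 0.10 to 0.30), Egr2KO against Cre in CD229pos (0.23 to 0.56), Mef2aKO against Cre with CD11c (0.14 to 0.21) and the Mef2aKO CD229 step (0.15 to 0.19). Values with the block stand beside those results where a call changed.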

Additional observations from a re-analysis of the deposited data

Results flagged for a closer look

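In Trem2KO CD229pos cells at 4 weeks P2ry12 in 1 library (1173 CPM) stood apart from the other 3 (1319 to 1332). Its gap to the nearest was 0.918 of the group's range, above Dixon's critical value for 4 samples. Over members, 18 such groups were tested, and chance flags about 1 in 20.

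By the interaction test, the step from CD229neg to CD229pos was not the same in Trem2KO as in WT for P2ry12 (0.55 on the log2 scale), P2ry13 (0.45), P2rx1 (1.31), P2rx7 (0.33), Adora3 (0.58) and Entpd1 (0.56); each is Trem2KO minus WT, so a positive value is a smaller fall in Trem2KO. The Clec7a step of Adora1 was larger in the libraries labelled Mef2aKO than in Cre, by 1.08 ± 0.18.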

How the results depend on the processing

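Of 5211 values of single genes under an alternative, 5025 stayed on their side of the threshold or, for single libraries without PE150, which have no test, within the spread. A further 95 lost and 81 gained a call, and 0 calls changed sign. Of values past the threshold in neither fit, 217 changed sign. Another 10, all from single libraries without PE150, moved by more than the spread. Outside leaving out libraries, 16 of 262 counts of members called moved by over 1.5 times, and the cause was not tested. No filter gave 3 for the diet step of Mef2aKO against that of Cre (0 as reported), 1 for Mef2aKO baseline CD229pos against Cre (0), 2 for the Cre diet step at 6 weeks (1), 5 for its CD229 step (3), 1 for Egr2KO against Cre at baseline (0) and 2 for whole populations (1). DESeq2 gave 4 for those diet steps, 1 for baseline CD229pos, 1 for Egr2KO against Cre at baseline and 2 for whole populations. The replicate block gave 5 for the 6-week Cre CD229 step, 1 for Egr2KO against Cre at baseline and 2 for the Egr2KO diet step (1), and changed no other count by that much; the nested replicate block and the PE150 covariate each gave 6 for the 6-week Cre CD229 step. Only the compared groups gave 1 for the Mef2aKO CD229 step (0).

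Leaving out 1 library moved these counts: 1 to 2 for the Trem2KO diet step, 0 to 3, 1 to 2, 1 to 2 and 0 to 3 for Mef2aKO against Cre in the 4 gates from Clec7aneg on, 3 to 4 for the Mef2aKO CD11c step, 0 to 2 for the diet steps of Mef2aKO against Cre, 1 to 2 and 3 to 6 for the 6-week Cre diet and CD229 steps, 0 to 1 for Egr2KO against Cre in CD229neg and in CD229posCD11cpos, and 1 to 2 in whole populations. Groups of 2 or 3 libraries limit precision, and P2rx1 in CD11c gates rests on few reads.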

Other observations

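Egr2 itself was lower in Trem2KO than in WT CD229pos cells, with a log2 fold change of -4.49 ± 0.33 (adjusted p = 9.71e-12), in the gate where the value for Adora1 was -0.65 ± 0.14. In Egr2KO CD229pos cells Adora1 was higher by 1.29 ± 0.13. Among ungated 5-week cells, P2rx1 held 5.94 and 4.12 CPM in Cre and 5.13 and 6.54 in Egr2KO.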
